A study of Saccharomyces cerevisiae with 9 samples.

Results

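The 10 mRNAs described here encode the enzymes that carry out the steps of glycolysis from fructose-1,6-bisphosphate aldolase to pyruvate kinase in *Saccharomyces cerevisiae*. They were chosen by function, as the spliced mRNA entries of *FBA1* (YKL060C), *TPI1* (YDR050C), *TDH1* (YJL052W), *TDH2* (YJR009C), *TDH3* (YGR192C), *PGK1* (YCR012W), *GPM1* (YKL152C), *ENO1* (YGR254W), *ENO2* (YHR174W) and *CDC19* (YAL038W), and make up 10 of the 6952 entries of the transcript table. All 10 were found and all 10 passed the filter on low counts in each comparison.

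RNA-Seq was performed on 9 libraries, 3 each of *pab1Δpbp1Δ*, *pbp1Δ* and WT cells of the W303 background, all grown in YEPD at 30 °C. In *pbp1Δ* cells *PBP1* is replaced by *URA3*, and *pab1Δpbp1Δ* cells carry that replacement together with a kanMX replacement of *PAB1*, so that *pab1Δpbp1Δ* against *pbp1Δ* is the comparison that differs in *PAB1* alone. Pab1 is the cytoplasmic poly(A)-binding protein, and Pbp1 is a protein that binds it and whose loss lets cells live without Pab1. By the study's methods, each mutant replicate is an isolate while the WT replicates are technical, so the p-values against WT may rest on technical spread in 1 of the strains. The *pab1Δpbp1Δ* cells are described as slow growing, and growth rate and genotype cannot be told apart in these libraries. *PAB1* had 0.331 CPM in *pab1Δpbp1Δ* cells, against 1566 CPM in *pbp1Δ* cells, and *PBP1* had 1.29 CPM in *pab1Δpbp1Δ* cells and 1.03 CPM in *pbp1Δ* cells, against 342 CPM in WT cells. Expected counts per library added up to between 73062345 and 100361370.

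Aldolase splits a six-carbon sugar phosphate into a pair of triose phosphates, and the enzymes after it oxidise and rearrange these to pyruvate with a net gain of ATP. Yeast growing on glucose ferments most of the sugar through this route, and its glycolytic mRNAs are among the most abundant in the cell. Glyceraldehyde-3-phosphate dehydrogenase is made from the paralogs *TDH1*, *TDH2* and *TDH3*, and enolase from *ENO1* and *ENO2*. *TDH1* is known as the form made by cells that have left rapid growth on glucose, and *ENO2* as the form of enolase that glucose induces.

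The paralogs are similar in sequence, which bears on how reads can be divided among them. The RefSeq coding sequences of *TDH2* and *TDH3* are identical at 95.8% of positions, *TDH1* and *TDH2* at 90.2%, *TDH1* and *TDH3* at 88.9%, and *ENO1* and *ENO2* at 94.8%. The stretches below are shown because they are where the family members differ most. They cover coding positions 64 to 123 of the *TDH* genes and 340 to 399 of the *ENO* genes, run 5′ to 3′ on the coding strand, and have in capitals each base that is not the same in all members of the family (21 of 60 for *TDH*, 13 of 60 for *ENO*).
TDH1: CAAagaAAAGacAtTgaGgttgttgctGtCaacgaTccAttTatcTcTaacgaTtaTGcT
TDH2: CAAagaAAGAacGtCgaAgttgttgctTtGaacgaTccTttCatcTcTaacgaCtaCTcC
TDH3: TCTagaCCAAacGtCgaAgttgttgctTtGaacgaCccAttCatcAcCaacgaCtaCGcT
ENO1: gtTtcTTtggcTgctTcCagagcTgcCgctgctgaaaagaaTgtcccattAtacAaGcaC
ENO2: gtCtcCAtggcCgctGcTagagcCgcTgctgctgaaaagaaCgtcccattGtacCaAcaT

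In build R64 these lie at chrX:338334-338393 on the plus strand (*TDH1*), chrX:454559-454618 on the minus strand (*TDH2*), chrVII:883688-883747 on the minus strand (*TDH3*), chrVII:1001266-1001325 on the plus strand (*ENO1*) and chrVIII:451666-451725 on the plus strand (*ENO2*). The reference strain is S288C and the cells are W303. The next pair of stretches is shown for the contrary reason, since the paralogs have the same bases there. The first is the same in all 3 *TDH* genes (coding positions 436 to 495) and the second opens the coding sequence of both *ENO* genes (positions 1 to 60).
TDH shared: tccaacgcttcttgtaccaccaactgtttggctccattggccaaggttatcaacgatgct
ENO shared: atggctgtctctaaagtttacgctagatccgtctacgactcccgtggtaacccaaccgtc

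Of all windows of 75 bases, the read length, in the coding sequence, 9.84% in *TDH1*, 18.9% in *TDH2*, 12.6% in *TDH3* and 10.7% in each of *ENO1* and *ENO2* occur elsewhere in the genome. None of the windows of *FBA1*, *TPI1*, *PGK1*, *GPM1* or *CDC19* does. These are exact matches. With up to 2 differing bases allowed, 54.9% of windows at the same position matched between *TDH2* and *TDH3*, and 43.4% between *ENO1* and *ENO2*. For *TDH1* it was 28.3% with *TDH2* and 16.2% with *TDH3*. All 10 coding sequences are a single exon, and the RefSeq annotation has no other gene overlapping any of them, although the transcript table also holds the entries YCR013C and YKL153W, on the strand opposite *PGK1* and *GPM1*. For the paralogs the split of shared reads was estimated by the authors' software, and its part in the values below was not tested. The sums over each family do not depend on the split and so cannot test it.

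Levels between genes are compared as FPKM, which is scaled to transcript length. In WT cells the order of mean FPKM was *TDH3* (18116 ± 154, SD, n = 3), *FBA1* (10261 ± 293), *CDC19* (9767 ± 202), *ENO2* (6528 ± 111), *PGK1* (3968 ± 189), *GPM1* (3305 ± 149), *TDH2* (1799 ± 32.6), *TPI1* (1226 ± 64.4), *ENO1* (295 ± 13.7) and *TDH1* (15.6 ± 1.71). *FBA1* and *CDC19* are neighbours in that order whose libraries overlapped in *pab1Δpbp1Δ* and WT cells but not in *pbp1Δ* cells. *PGK1* and *GPM1* overlapped in *pab1Δpbp1Δ* and *pbp1Δ* cells but not in WT cells. *TPI1* and *TDH2* overlapped in *pab1Δpbp1Δ* cells only.

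The order was the same in *pbp1Δ* cells. In *pab1Δpbp1Δ* cells *TPI1*, at 1812 ± 118 FPKM, averaged slightly more than *TDH2*, at 1806 ± 241 FPKM, with overlapping libraries. *TDH3*, the main glyceraldehyde-3-phosphate dehydrogenase mRNA, ranked between 1 and 3 among the 6587 mRNA entries in all 9 libraries. *FBA1*, aldolase, and *CDC19*, pyruvate kinase, ranked between 4 and 6, and *ENO2* between 9 and 11.

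At the other end, *TDH1* ranked 1990, 1546 and 2068 in *pab1Δpbp1Δ* cells, against 4855, 4754 and 4887 in *pbp1Δ* cells and 4499, 4278 and 4499 in WT cells. *ENO1* ranked 186, 161 and 173 in *pab1Δpbp1Δ* cells, against 436, 362 and 430 in *pbp1Δ* cells and 433, 408 and 453 in WT cells. These are the least abundant members of their families, and both stood higher in *pab1Δpbp1Δ* cells than in either of the other strains.

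**Figure D1:**
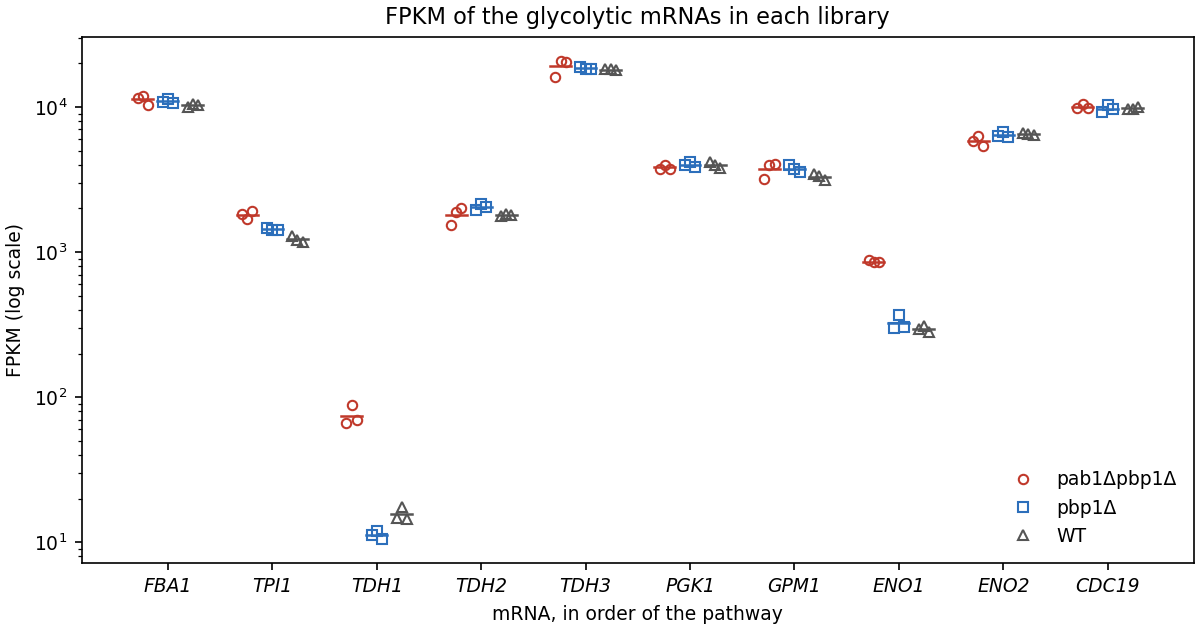
FPKM on a log scale of the 10 glycolytic mRNAs in each library, in the order of the pathway, with points for libraries and lines for the mean of the 3 libraries of a strain. *TDH1* (65.9 to 87.7 FPKM in *pab1Δpbp1Δ*, 10.6 to 11.96 in *pbp1Δ*, 14.4 to 17.6 in WT) and *ENO1* (851 to 881 in *pab1Δpbp1Δ*, 301 to 371 in *pbp1Δ*, 282 to 309 in WT) are the mRNAs whose *pab1Δpbp1Δ* libraries lie farthest above the others.

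The comparison of *pab1Δpbp1Δ* with *pbp1Δ* cells asks how the loss of *PAB1* changed these mRNAs. Of the 10, *TDH1* and *ENO1* were higher in *pab1Δpbp1Δ* cells, by 5.22-fold and 2.08-fold, and none was lower at an adjusted p under 0.01 (edgeR's quasi-likelihood test, Benjamini-Hochberg adjusted). Of all 6573 entries tested, 18.0% were called higher and 16.7% lower in the same comparison. At an unadjusted p under 0.05, 4 members were lower and 2 higher, against 28.5% and 32.3% of all entries. DESeq2, the tool of the study's methods, called 4 members lower (*TDH2*, *PGK1*, *GPM1* and *ENO2*) and 2 higher (*TDH1* and *ENO1*). Of all entries DESeq2 tested, 22.0% were lower and 23.4% higher. The median log2 fold change of the members was -0.30, against 0.03 for all entries tested.

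Levels within a gene are compared as CPM, the counts of each library brought to a common size with edgeR's TMM factors. *TDH1* had 59.1, 72.7 and 56.0 CPM in the *pab1Δpbp1Δ* libraries, against 11.9, 13.2 and 11.1 CPM in the *pbp1Δ* libraries. The lowest *pab1Δpbp1Δ* library was thus well above the highest *pbp1Δ* library. The log2 fold change was 2.38 (SE 0.14, adjusted p = 4.46e-05, edgeR's quasi-likelihood test, Benjamini-Hochberg adjusted), and it lay between 2.26 and 2.73 in 15 other settings of the analysis.

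*ENO1* had 1063, 949.5 and 918 CPM in the *pab1Δpbp1Δ* libraries, against 429, 549.9 and 436 CPM in the *pbp1Δ* libraries. These libraries did not overlap either, although 1 *pbp1Δ* library stood above the other 2. The log2 fold change was 1.06 (SE 0.15, adjusted p = 0.000895, same test) and lay between 0.98 and 1.40 in the 15 other settings.

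The abundant paralogs of both families did not pass the threshold in the edgeR test. With DESeq2, *TDH2* (adjusted p = 1.38e-05) and *ENO2* (adjusted p = 0.00107) passed it as lower, and *TDH3* (adjusted p = 0.0123) did not. *TDH2* had 1635, 1854 and 1899.9 CPM in *pab1Δpbp1Δ* cells, against 2454, 2809 and 2572 CPM in *pbp1Δ* cells, a log2 fold change of -0.53 (95% interval -0.84 to -0.22) with an adjusted p of 0.0113 by edgeR's quasi-likelihood test, Benjamini-Hochberg adjusted. *ENO2* had 6703, 6619.5 and 5486 CPM in *pab1Δpbp1Δ* cells, against 8477, 9467 and 8340.4 CPM in *pbp1Δ* cells, a log2 fold change of -0.48 (95% interval -0.82 to -0.13, adjusted p = 0.0272, same edgeR test). All *pab1Δpbp1Δ* libraries lay below all *pbp1Δ* libraries for both genes. *TDH3* had 13823, 16654 and 15753 CPM in *pab1Δpbp1Δ* cells, against 19131, 19418 and 18571 CPM in *pbp1Δ* cells, with a log2 fold change of -0.30 (95% interval -0.62 to 0.03). *TDH3*, too, had no overlap between the strains on this scale.

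The steps with a single member in the set gave similar values. *FBA1*, aldolase, had between 8902 and 11119.6 CPM in *pab1Δpbp1Δ* cells, against 12022 to 13372 CPM in *pbp1Δ* cells (log2 fold change -0.30, 95% interval -0.64 to 0.05). *PGK1*, phosphoglycerate kinase, which makes ATP from 1,3-bisphosphoglycerate, had 3789 to 4241 CPM in *pab1Δpbp1Δ* cells, against 5105 to 5741 CPM in *pbp1Δ* cells (-0.40, -0.71 to -0.09). *GPM1*, phosphoglycerate mutase, had 2136 to 2462 CPM in *pab1Δpbp1Δ* cells, against 2829 to 3145 CPM in *pbp1Δ* cells (-0.36, -0.66 to -0.06). For each of these genes the libraries of the strains were apart. *CDC19*, pyruvate kinase, had 12474 to 13856 CPM in *pab1Δpbp1Δ* cells, against 15417 to 17808 CPM in *pbp1Δ* cells (-0.29, -0.62 to 0.03), again without overlap. By edgeR's quasi-likelihood test, Benjamini-Hochberg adjusted, adjusted p-values were 0.125 for *FBA1*, 0.106 for *TDH3*, 0.0347 for *PGK1*, 0.0480 for *GPM1* and 0.112 for *CDC19*.

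*TPI1* stood apart from the other steps with a single member. This mRNA, for the isomerase that interconverts the triose phosphates, had 1115, 954 and 1051 CPM in *pab1Δpbp1Δ* cells, against 1059.9, 1067 and 1016 CPM in *pbp1Δ* cells. The libraries overlapped and the log2 fold change was -0.0048 (95% interval -0.29 to 0.28). In CPM, 9 of the 10 members, all but *TPI1*, had no overlap between the strains, a pattern shared by 64.9% of all entries tested.

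**Figure D2:**
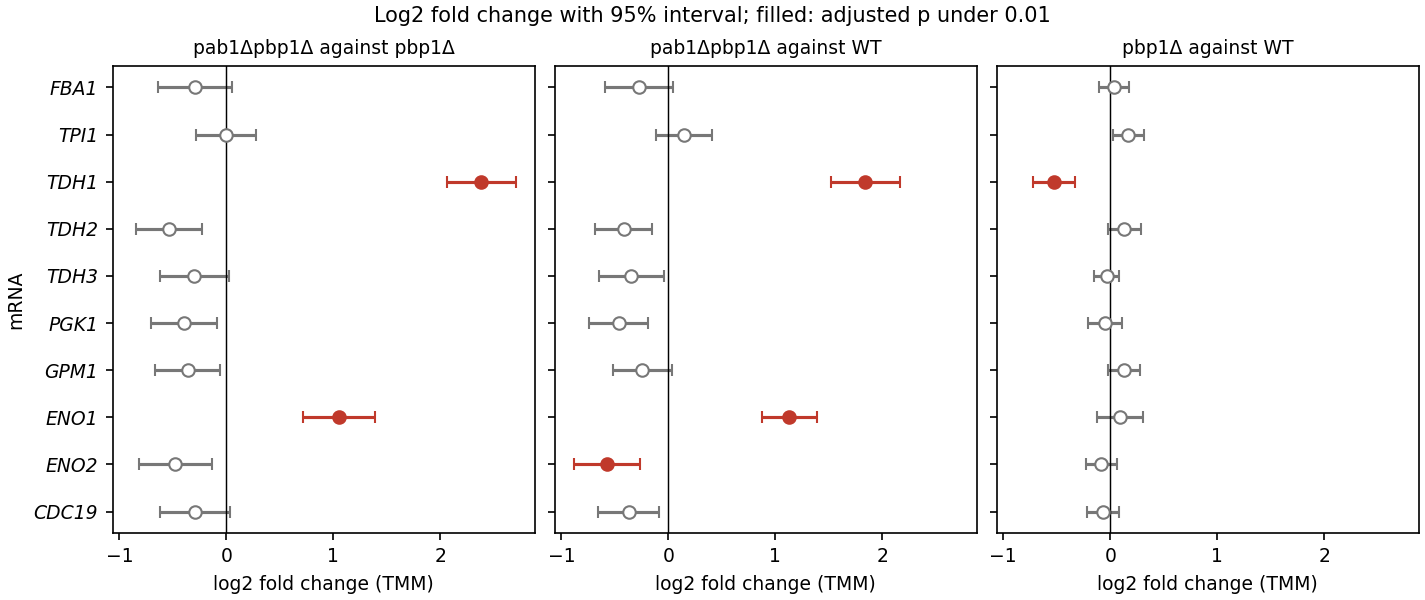
Log2 fold change of each mRNA with its 95% interval on the TMM scale in the 3 comparisons of strains, with filled points for an adjusted p under 0.01 in edgeR's quasi-likelihood test. *TDH1* (2.38) and *ENO1* (1.06) lie to the right of 0 in *pab1Δpbp1Δ* against *pbp1Δ*, where the other 8 range from -0.53 to -0.0048, and total-count scaling turns the sign of *FBA1*, *TPI1*, *TDH3* and *CDC19* in that comparison.

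The direction of the small differences depended on how libraries were scaled. The study's text mentions no spike-in, so every level is relative to the mRNA pool of its library, and less mRNA per cell would not be seen. The TMM factors were 1.12 to 1.25 in *pab1Δpbp1Δ* cells, against 0.911 to 0.949 in *pbp1Δ* cells and 0.889 to 0.909 in WT cells. With scaling to the total count instead, the median of all entries in *pab1Δpbp1Δ* against *pbp1Δ* was 0.37, and the log2 fold changes of *FBA1*, *TDH3* and *CDC19* (0.05 each) and of *TPI1* (0.34) were positive. The median of the members was then 0.05. Relative to the median of all entries, the members' median was -0.33 with TMM, RLE, upper-quartile and total-count scaling alike. A change of scaling moves all entries by nearly the same amount, so this agreement was fixed in advance and is no support. *TDH1* and *ENO1* passed the threshold with each of these scalings.

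**Figure D3:**
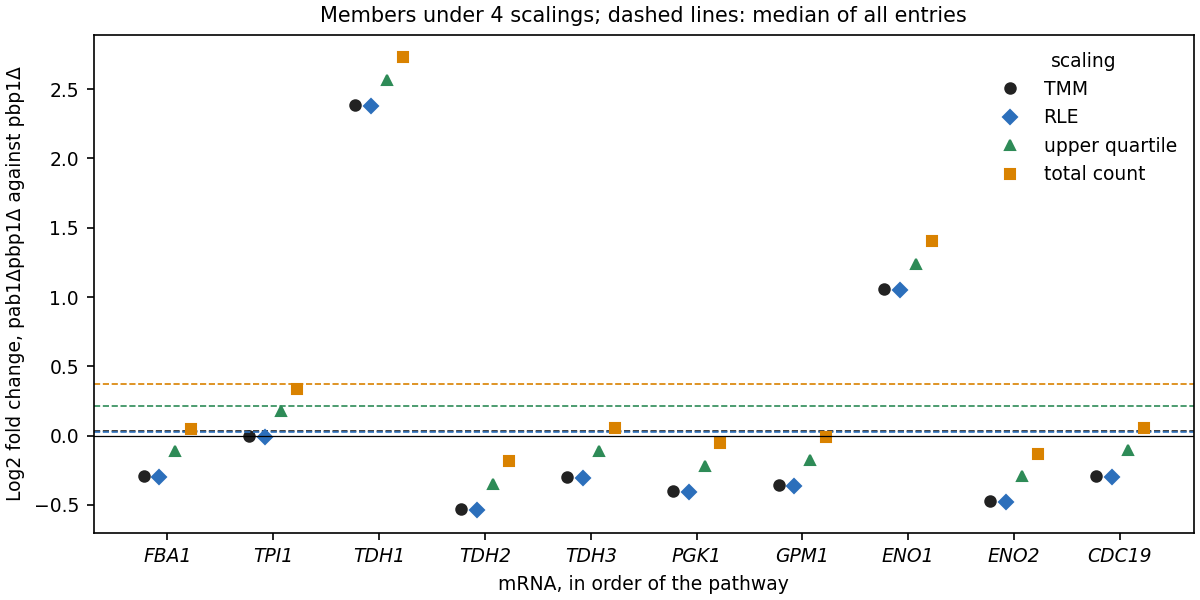
Log2 fold change of each mRNA in *pab1Δpbp1Δ* against *pbp1Δ* cells under 4 scalings, with dashed lines for the median of all entries under each. Total-count scaling puts the median of all entries at 0.37 and moves *FBA1*, *TPI1*, *TDH3* and *CDC19* above 0, while *TDH1* and *ENO1* lie above 1 under all 4.

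How reads from near-identical stretches are split does not affect the sum over a family. The summed counts of *TDH1*, *TDH2* and *TDH3* were 17269 ± 1578 CPM in *pab1Δpbp1Δ* cells and 21664 ± 547 CPM in *pbp1Δ* cells (SD, n = 3 each). The log2 fold change of the sum was -0.32 (95% interval -0.65 to 0.01, adjusted p = 0.0878, edgeR's quasi-likelihood test, Benjamini-Hochberg adjusted). Summed *ENO1* and *ENO2* had 7246 ± 737 CPM in *pab1Δpbp1Δ* cells and 9233 ± 682 CPM in *pbp1Δ* cells, a log2 fold change of -0.34 (-0.68 to -0.00037, adjusted p = 0.0819, same edgeR test). Neither sum passed the threshold.

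The makeup of each family was compared as the share of its summed FPKM that each paralog took. *ENO1* made up 12.9 ± 0.867% of enolase FPKM in *pab1Δpbp1Δ* cells, 4.83 ± 0.336% in *pbp1Δ* cells and 4.32 ± 0.170% in WT cells (SD, n = 3 each). *TDH1* made up 0.357 ± 0.0397% of glyceraldehyde-3-phosphate dehydrogenase FPKM in *pab1Δpbp1Δ* cells, 0.0549 ± 0.00331% in *pbp1Δ* cells and 0.0781 ± 0.00793% in WT cells. The *pab1Δpbp1Δ* libraries lay above those of the other strains for both shares, yet *TDH1* stayed far below its paralogs. *TDH2* made up 8.63 ± 0.329% of the family in *pab1Δpbp1Δ* cells, 10.01 ± 0.545% in *pbp1Δ* cells and 9.03 ± 0.147% in WT cells. *TDH3* made up 91.0 ± 0.299% in *pab1Δpbp1Δ* cells, 89.9 ± 0.547% in *pbp1Δ* cells and 90.9 ± 0.149% in WT cells.

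These shares do not depend on scaling, since numerator and denominator come from the same library. An exact permutation test (two-sided, 3 libraries against 3) gave p = 0.1, the smallest it can give, for all 4 isozyme shares in *pab1Δpbp1Δ* against *pbp1Δ* and in *pbp1Δ* against WT. In *pab1Δpbp1Δ* against WT the same exact permutation test gave p = 0.1 for the *TDH1* and *ENO1* shares, 0.2 for *TDH2* and 0.6 for *TDH3*. Adjusted over the 15 share comparisons made, a p of 0.1 became 0.136, so none could pass 0.05 in this design.

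**Figure D4:**
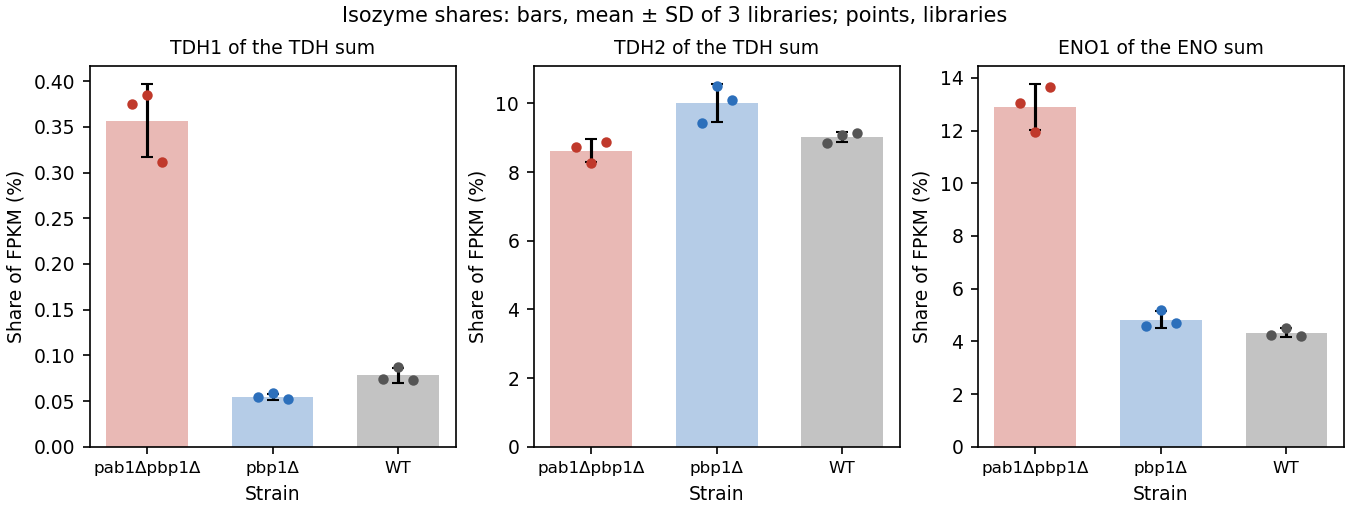
Share of a family's FPKM, in percent, taken by *TDH1*, *TDH2* and *ENO1* in each strain, with bars for the mean, error bars for the SD and points for the 3 libraries. *ENO1* takes 11.9 to 13.7% of enolase FPKM in *pab1Δpbp1Δ* cells, against 4.57 to 5.21% in *pbp1Δ* cells and 4.21 to 4.52% in WT cells.

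As a share of all expected counts, the 10 mRNAs together took 6.24%, 7.01% and 6.61% of the *pab1Δpbp1Δ* libraries, 6.41%, 6.68% and 6.35% of the *pbp1Δ* libraries and 6.31%, 6.34% and 6.30% of the WT libraries. The *pab1Δpbp1Δ* libraries reached both below and above all the others. The means were 6.62 ± 0.386% in *pab1Δpbp1Δ* cells, 6.48 ± 0.176% in *pbp1Δ* cells and 6.32 ± 0.0220% in WT cells. An exact permutation test gave p = 0.7 for *pab1Δpbp1Δ* against *pbp1Δ*, p = 0.4 for *pab1Δpbp1Δ* against WT and p = 0.1 for *pbp1Δ* against WT, with adjusted values of 0.7, 0.462 and 0.136.

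Member by member, the shares of counts in *pab1Δpbp1Δ* and *pbp1Δ* cells overlapped for 7 of the 10. The 3 without overlap were all higher in *pab1Δpbp1Δ* cells, and 66.8% of all entries tested had no overlap by this measure. They were *TDH1* (0.00661 to 0.00880% of counts in *pab1Δpbp1Δ* cells, against 0.00106 to 0.00120% in *pbp1Δ* cells), *ENO1* (0.115 to 0.119%, against 0.0406 to 0.0501%) and *TPI1* (0.116 to 0.132%, against 0.0965 to 0.1004%). *TPI1* thus had no overlap by share of counts and overlapped in TMM-scaled CPM, and with total-count scaling its log2 fold change of 0.34 did not pass the threshold (adjusted p = 0.0252, edgeR's quasi-likelihood test).

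*TDH3* took the largest share in each strain, 1.85 ± 0.260% in *pab1Δpbp1Δ* cells, 1.78 ± 0.0268% in *pbp1Δ* cells and 1.75 ± 0.0149% in WT cells. Its spread in *pab1Δpbp1Δ* cells came from replicate 1, at 1.55%, against 2.02% and 1.97% in the other *pab1Δpbp1Δ* libraries. *TDH2* and *GPM1* were also lowest in that library, at 0.183% and 0.239% of counts, as were *TDH1*, *CDC19* and *PGK1* by smaller margins, whereas *TPI1*, *ENO1*, *ENO2* and *FBA1* were not.

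**Figure D5:**
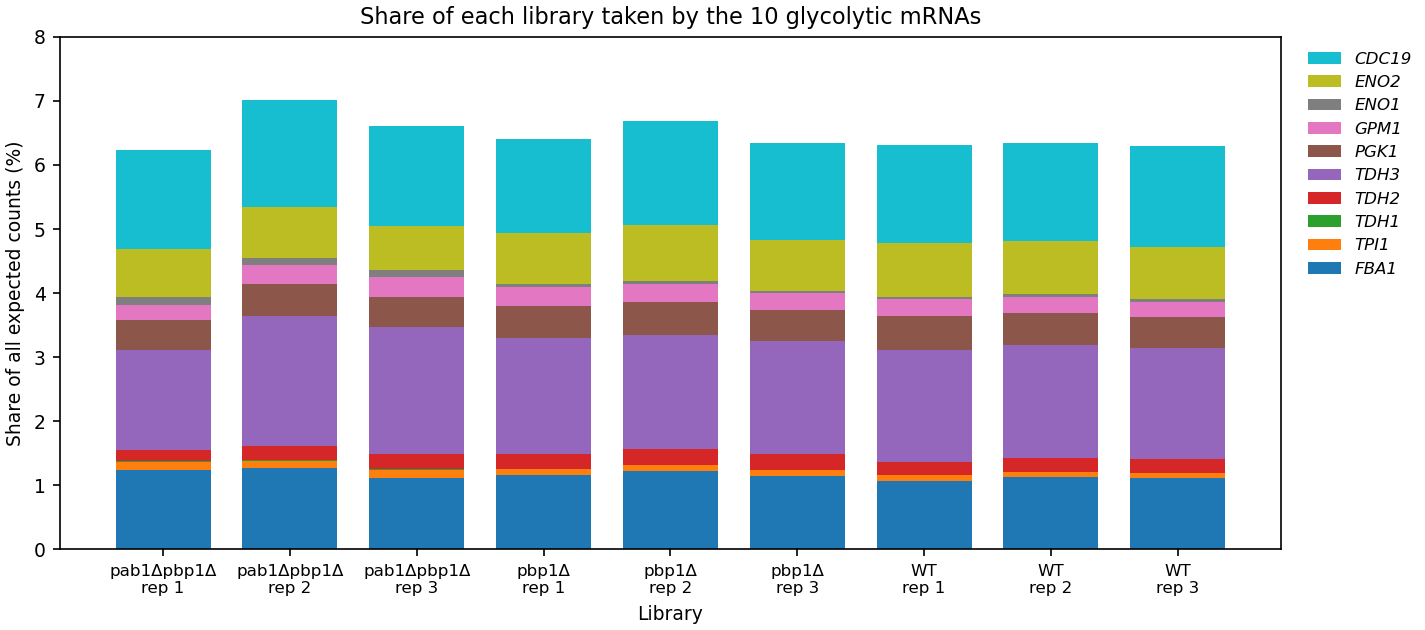
Share of all expected counts, in percent, taken by each of the 10 mRNAs, stacked for each library. The summed share is 6.24 to 7.01% in *pab1Δpbp1Δ*, 6.35 to 6.68% in *pbp1Δ* and 6.30 to 6.34% in WT, and *TDH3*, *CDC19*, *FBA1* and *ENO2* make up most of it in every library.

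The comparison of *pbp1Δ* with WT cells asks what the loss of *PBP1* alone did. *TDH1* was lower in *pbp1Δ* cells and no member was higher, where 6.24% of the 6425 entries tested were called lower and 5.34% higher. At an unadjusted p under 0.05, 1 member was higher and 1 lower, against 1280 (19.9%) and 1187 of the 6425 entries. DESeq2 called 0 higher and 1 lower, against 7.83% and 10.6% of the entries it tested. *TDH1* had 11.9, 13.2 and 11.1 CPM in *pbp1Δ* cells, against 16.6, 19.4 and 16.3 CPM in WT cells, a log2 fold change of -0.53 (SE 0.09, adjusted p = 0.00253, edgeR's quasi-likelihood test, Benjamini-Hochberg adjusted). The strains did not overlap, but the call was lost without *pbp1Δ* replicate 3 (log2 fold change -0.48, adjusted p = 0.0110) and with all 9 libraries in the edgeR fit (-0.53, adjusted p = 0.0729).

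The other 9 members ranged from -0.08 (*ENO2*) to 0.17 (*TPI1*) on the log2 scale in *pbp1Δ* against WT. The widest 95% interval among them was that of *ENO1*, -0.12 to 0.30. *TPI1* had 1059.9, 1067 and 1016 CPM in *pbp1Δ* cells, against 997, 905 and 904 CPM in WT cells, which did not overlap (95% interval of the log2 fold change 0.02 to 0.31, adjusted p = 0.0882, edgeR's quasi-likelihood test). In CPM, 3 members (*TDH1*, *TDH2* and *TPI1*) had no overlap between these strains, against 42.1% of all entries tested. The family sums differed by -0.01 (*TDH*, 95% interval -0.13 to 0.10) and -0.07 (*ENO*, -0.22 to 0.08).

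The *pab1Δpbp1Δ* cells were also set against WT, a comparison that shares its libraries with the others. *TDH1* and *ENO1* were again higher, with log2 fold changes of 1.84 (SE 0.14, adjusted p = 0.000103) and 1.13 (SE 0.11, adjusted p = 0.000192, edgeR's quasi-likelihood test, Benjamini-Hochberg adjusted). *ENO2* was lower in the fit without a replicate block, at 6703, 6619.5 and 5486 CPM in *pab1Δpbp1Δ* cells, against 9518, 9197 and 9213 CPM in WT cells. With the replicate as a block *ENO2* did not pass the threshold. Of the 6558 entries tested, 21.8% were called higher and 21.6% lower. In CPM, 9 of the 10 members had no overlap between these strains, against 69.7% of all entries.

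The call on *ENO2* was not firm. Its log2 fold change was -0.57 (SE 0.13, adjusted p = 0.00732, edgeR's quasi-likelihood test, Benjamini-Hochberg adjusted), and a fit with the replicate as a block gave -0.58 with an adjusted p of 0.0189. With upper-quartile scaling it was -0.33 (adjusted p = 0.0497) and with total-count scaling -0.16 (adjusted p = 0.188), where the median of all entries was 0.28 and 0.45. Leaving out *pab1Δpbp1Δ* replicate 2 or 3, or any of the WT libraries, also lost the call, with values from -0.62 to -0.47.

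*TDH2*, *TDH3*, *PGK1* and *CDC19* had log2 fold changes of -0.42, -0.35, -0.47 and -0.37 in *pab1Δpbp1Δ* against WT, with adjusted p-values of 0.0153, 0.0498, 0.0112 and 0.0315 by edgeR's quasi-likelihood test, Benjamini-Hochberg adjusted. *FBA1*, *GPM1* and *TPI1* had -0.28 (95% interval -0.59 to 0.04), -0.24 (-0.52 to 0.03) and 0.15 (-0.11 to 0.41). With total-count scaling *TDH2*, *TDH3*, *CDC19*, *FBA1* and *GPM1* were positive (0.01 to 0.18), and *TPI1*, at 0.56, passed the threshold as higher.

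The enzymes before aldolase did not follow 1 direction in *pab1Δpbp1Δ* against *pbp1Δ* cells. Of 6 tested, 2 were higher and 1 was lower, where 18.0% of all entries were higher and 16.7% lower. The same background holds for the counts of the other lists below. At an unadjusted p under 0.05 the background is 28.5% lower and 32.3% higher, and in DESeq2 it is 22.0% lower and 23.4% higher. The glucose kinases *HXK1* (log2 fold change 0.74, adjusted p = 0.00162, edgeR's quasi-likelihood test, Benjamini-Hochberg adjusted) and *GLK1* (0.89, adjusted p = 0.000464) were higher, at 227 ± 16.4 CPM and 219 ± 7.29 CPM in *pab1Δpbp1Δ* cells, against 136 ± 15.1 CPM and 119 ± 10.2 CPM in *pbp1Δ* cells. *PFK1*, a subunit of phosphofructokinase, was lower (-0.67, adjusted p = 0.00872), and the other subunit gene, *PFK2*, had -0.37 (adjusted p = 0.0560). *HXK2*, the main hexokinase on glucose, and *PGI1*, phosphoglucose isomerase, each had 0.04, with 95% intervals of -0.24 to 0.32 and -0.30 to 0.38.

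Of the 3 minor paralogs of members, 1 was higher and none was lower. At an unadjusted p under 0.05, 1 was lower and 2 were higher, and in DESeq2 0 were lower and 2 higher. *GPM2*, a homolog of *GPM1*, had 12.6 ± 1.55 CPM in *pab1Δpbp1Δ* cells, against 2.98 ± 0.183 CPM in *pbp1Δ* cells (SD, n = 3 each, log2 fold change 2.08, adjusted p = 0.000122 by edgeR). *PYK2*, the second pyruvate kinase gene, had a log2 fold change of 0.38 (95% interval 0.17 to 0.60), just outside the threshold, and *GPM3* had -0.40 (-0.70 to -0.11). *GPM2* was also higher in *pbp1Δ* cells than in WT cells (0.75, adjusted p = 0.00476 by edgeR's quasi-likelihood test), at 2.98 CPM in *pbp1Δ* cells and 1.77 CPM in WT cells.

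After pyruvate, 1 of 4 genes was higher and 0 were lower, and 2 were higher and 0 lower both at an unadjusted p under 0.05 and in DESeq2. *PDC6*, a minor pyruvate decarboxylase gene, had 11.4 ± 3.84 CPM in *pab1Δpbp1Δ* cells, against 1.37 ± 0.216 CPM in *pbp1Δ* cells (log2 fold change 3.07, adjusted p = 0.00022 by edgeR). The major gene of that enzyme, *PDC1*, had -0.37 (95% interval -0.78 to 0.04), *PDC5* had 0.39 (0.14 to 0.65), and *ADH1*, the fermentative alcohol dehydrogenase, had -0.20 (-0.51 to 0.11).

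Of 4 genes of the branch that leads from the triose phosphates to glycerol, 2 were lower and 1 was higher, and 3 were lower and 1 higher both at an unadjusted p under 0.05 and in DESeq2. The glycerol-3-phosphate dehydrogenase genes *GPD1* and *GPD2* had log2 fold changes of -0.65 and -0.66 (adjusted p = 0.00744 and 0.00571, edgeR's quasi-likelihood test, Benjamini-Hochberg adjusted). *GPP2*, a glycerol phosphatase gene, was higher, at 147 ± 8.47 CPM in *pab1Δpbp1Δ* cells, against 55.9 ± 1.52 CPM in *pbp1Δ* cells (1.40, adjusted p = 6.64e-05, same edgeR test). Its paralog *GPP1* had -0.43 (95% interval -0.73 to -0.14, adjusted p = 0.0217, same edgeR test).

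Transcription factors that act on glycolytic genes were lower or did not pass the threshold. Of 5 tested, *RAP1* (-0.97, adjusted p = 0.000532, edgeR's quasi-likelihood test, Benjamini-Hochberg adjusted) and *REB1* (-0.83, adjusted p = 0.000756) were lower in *pab1Δpbp1Δ* than in *pbp1Δ* cells, and none was higher. *TYE7* (-0.66), *ABF1* (-0.42) and *GCR2* (-0.09) did not pass. At an unadjusted p under 0.05, 4 were lower and 0 higher, and DESeq2 called 3 lower and 0 higher. Of all entries, 28.5% were lower at that unadjusted p and 22.0% in DESeq2. The spliced *GCR1* entry is listed at 0 in all 9 libraries and could not be tested. Its unspliced entry, looked at after its values were seen, had 176 to 449.6 CPM in *pab1Δpbp1Δ* cells, against 204 to 212 CPM in *pbp1Δ* cells, and the libraries overlapped. In *pbp1Δ* against WT only *TYE7* of these factors passed, at -0.29 (adjusted p = 0.00432, same edgeR test).

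Of the enzymes that work against glycolysis, *PCK1*, phosphoenolpyruvate carboxykinase, had 19.2 ± 5.07 CPM in *pab1Δpbp1Δ* cells, against 5.06 ± 0.318 CPM in *pbp1Δ* cells (log2 fold change 1.93, adjusted p = 0.000358 by edgeR's quasi-likelihood test). *FBP1*, fructose-1,6-bisphosphatase, had a very low level, at 0.468 CPM in *pab1Δpbp1Δ* cells and 0.258 CPM in *pbp1Δ* cells (0.87, adjusted p = 0.0367 by the same test). The opposite-strand entries YCR013C and YKL153W had at most 0.679 and 0.309 CPM as strain means.

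Over the 9 libraries, the members' log2 CPM varied in groups, given as a description since the libraries share strain and scaling. *PGK1* and *ENO2* had a Pearson r of 0.99, *ENO2* and *CDC19* 0.98, and *TDH1* and *ENO1* 0.94, whereas *TDH1* and *TDH2* had -0.93. *TPI1* had r from -0.52 (*TDH3*) to 0.40 (*ENO1*) with the other members, negative with all but *TDH1* and *ENO1*. Among 3064 other entries with a mean of at least 50 CPM, the log2 CPM most like the mean of the members belonged to *HSP82* (r = 0.84), *HSP60* (0.76), *BPT1* (0.75), the unspliced entry of YNL054W-B (0.74) and *HUL5* (0.73). The mean weighs all 10 members equally, so that it contains opposite movements of *TDH1* and *ENO1* and of the rest. Each of these like entries had a higher mean CPM in *pab1Δpbp1Δ* than in *pbp1Δ* cells (*HSP60*, 1164 against 710). By contrast, 8 of the 10 members had negative log2 fold changes in that comparison.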

How the data were processed

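Expected counts and FPKM values were used as deposited by the authors. The submitters' processing notes name RSEM 1.3.0, Bowtie 1.0.0 and build R64, and reads were aligned to a transcriptome of spliced, unspliced and some non-coding RNAs. The expected counts were rounded to whole numbers and tested with edgeR 4.0.16 in R 4.3.3 (filterByExpr with a minimum count of 10, TMM, robust glmQLFit and glmQLFTest, Benjamini-Hochberg adjustment over all entries tested, threshold 0.01), each pair of strains on its 6 libraries. Standard errors are the log2 fold change divided by the square root of F. Shares were tested in Python 3.11.15 with scipy 1.17.1 by exact permutation. The members and gene lists were chosen with earlier results of these data known. The text names all members, the genes of fixed lists (upper glycolysis, minor paralogs, steps after pyruvate, glycerol branch, regulators, counter-enzymes), the entries opposite *PGK1* and *GPM1*, *PAB1* and *PBP1*, and the 5 entries most like the members' mean.

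Sequences, coordinates and strands are from the RefSeq annotation of R64. The procedure was tested on simulated data. Replicate numbers are given in the labels but no source ties a number to a shared batch or culture. Deviations of same-numbered libraries correlated by 0.242, 0.225 and 0.166 in *pab1Δpbp1Δ* and WT, all above 0.1, so that the numbers pair these libraries by the rule used, and the value with a replicate block is given beside a result where it changes the call. All other values are without the block. They correlated by 0.179, 0.0407 and 0.263 in *pab1Δpbp1Δ* and *pbp1Δ*, and by 0.626, -0.0290 and 0.306 in *pbp1Δ* and WT, which does not meet that rule. Alternatives were RLE, upper-quartile and total-count scaling, DESeq2 1.42.0, no filter, 10 counts in every library, all 9 libraries, the per-locus table, a replicate block, a threshold of 0.05 and leaving out each library.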

Additional observations from a re-analysis of the deposited data

How the results depend on the processing

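Limits are those of 3 libraries a strain, of values relative to each library's mRNA pool, and of a split of reads between paralogs that was estimated. *TDH1* and *ENO1* stayed past the threshold in both comparisons of *pab1Δpbp1Δ* under all 15 alternatives run. The number of members changed, 2 in *pab1Δpbp1Δ* against *pbp1Δ*, was 6 at an adjusted p under 0.05, 6 with DESeq2, 5 with all 9 libraries in the edgeR fit, and 2 to 5 with a library left out (5 without *pab1Δpbp1Δ* replicate 1, when *TDH2*, *PGK1* and *ENO2* were lower). In *pab1Δpbp1Δ* against WT it was 3, and 7, 7, 5 and 2 to 6 under the same alternatives (6 without *pab1Δpbp1Δ* replicate 1). In *pbp1Δ* against WT it was 1, and 0 with all 9 libraries and 0 to 1 with a library left out (0 without *pbp1Δ* replicate 3). The cause was not tested. Calls over all entries in *pab1Δpbp1Δ* against *pbp1Δ* were 22.0% lower and 23.4% higher with DESeq2, and 16.7% and 18.0% with edgeR. Against WT, DESeq2 called 1781 entries lower and 1866 higher for *pab1Δpbp1Δ*, and edgeR 1417 and 1428. Shares of all entries under the other alternatives were not taken, so the counts of members there have no background.

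With DESeq2 the *TDH* sum passed the threshold in *pab1Δpbp1Δ* against *pbp1Δ* (-0.33) and against WT (-0.35), and the *ENO* sum against WT (-0.43). Without a library the *ENO* sum against WT lay between -0.47 and -0.34 and passed without *pab1Δpbp1Δ* replicate 1.

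Directions turned as follows on the log2 scale. In *pab1Δpbp1Δ* against *pbp1Δ*, *TPI1* was 0.18 with upper-quartile scaling, 0.34 with total-count scaling, 0.016 with 10 counts in every library and -0.0595 to 0.0484 with a library left out, and total-count scaling gave *FBA1* 0.045, *TDH3* 0.051 and *CDC19* 0.053. In *pbp1Δ* against WT, *TDH3* was 0.0064 with upper-quartile and 0.024 with total-count scaling, *PGK1* was 0.0064 with total-count scaling, the *TDH* sum was 0.025 with upper-quartile scaling, and with a library left out *FBA1* lay between -0.0173 and 0.0549 and *ENO1* between -0.0370 and 0.158. In *pab1Δpbp1Δ* against WT, total-count scaling gave *FBA1* 0.14, *TDH2* 0.0056, *TDH3* 0.075, *GPM1* 0.18 and *CDC19* 0.045. With a library left out, the difference in summed share of counts of *pab1Δpbp1Δ* against *pbp1Δ* lay between -0.0545 and 0.331 percentage points (-0.0545 without *pab1Δpbp1Δ* replicate 2), and that of the *TDH3* share against WT between -0.0467 and 0.233. With the replicate block, where the pairing applies, *ENO2* in *pab1Δpbp1Δ* against WT (-0.58, adjusted p = 0.0189 by edgeR) lost its call, and no other member's call changed in any comparison. The block left 2 members changed in *pab1Δpbp1Δ* against *pbp1Δ*, 2 in *pab1Δpbp1Δ* against WT, and 1 in *pbp1Δ* against WT.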
